A study of Homo sapiens with 18 samples.

Results

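The genes described here are 10 that encode the heat shock chaperones of the cytosol and the factor that switches them on: HSPA8, HSPA1A, HSPA1B, HSPA4, HSPH1, DNAJB1, HSP90AA1, HSP90AB1, HSPB1 and HSF1. They were chosen by symbol, and all 10 were listed in each of 3 expression tables, which hold 27630 gene symbols in all. Messenger RNA had been sequenced in 3 human cancer cell lines, the colon cancer lines RKO and COLO 201 and the lung cancer line H1975. Every line carried tet-MUC1shRNA, a hairpin RNA against the mucin gene MUC1 that is made when doxycycline is added, and a puromycin resistance genotype. Within each line 3 columns of vehicle (0.1% DMSO) stood against 3 columns of doxycycline (500 ng/ml). RKO was grown in EMEM and the other lines in RPMI1640, all with 10% serum. Whether a line was 1 clone is not given in the sources used here, and a control hairpin was not analysed here, so effects of doxycycline and of the hairpin cannot be told apart. The agent label is the same for all 18 samples, and each column's arm was read from its heading. In RKO the vehicle columns are headed with the drug name and no sign, and their reading as vehicle rests on the protocol, which names only these 2 treatments.

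The HSP70 proteins bind short stretches of unfolded protein in cycles of ATP hydrolysis. J-domain proteins such as DNAJB1 bring them clients and start the hydrolysis, and the HSP110 proteins HSPA4 and HSPH1 exchange the nucleotide. HSP90 proteins act later, on kinases and steroid receptors among others, and the small protein HSPB1 holds unfolded clients without ATP. HSPA8 and HSP90AB1 are the constitutive members of their families, and HSPA1A, HSPA1B, HSP90AA1, DNAJB1 and HSPH1 are known for strong induction by heat. HSF1 is the transcription factor of that response: as a trimer it binds heat shock elements, inverted repeats of the 5-base unit NGAAN. Cancer cells often hold these chaperones at high levels.

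RefSeq start windows of the 9 members that had one (GRCh38.p14, 300 bases each, most of them before the start; HSF1 had none in the table) were searched for 2 joined units, GAANNTTC or TTCNNGAA, and for 3 joined units, the same forms continued after 2 free bases by GAA or TTC in turn. Both strands were read, and each 3-unit match contains 2-unit matches. Of 35116 windows of this length, 13.49% held a 2-unit match and 0.49% a 3-unit match. Of the 27305 genes with a window, 16.18% held a 2-unit match and 0.61% a 3-unit match in at least 1 window. HSPA8, HSP90AA1 and HSP90AB1 had 3-unit matches. HSPB1, HSPA1A, HSPA1B and DNAJB1 had 2-unit matches only, and the letters were in neither the HSPH1 nor the HSPA4 window. The matches that lie before a start are printed with the bases around them, on the strand of the gene, because these 7 genes differ in how many exact units were found in a row. Units with a changed letter were not searched for, so a 2-unit match can be part of a longer element. Capitals mark the match.
HSPA8, chr11:123062347-123062374, 3 units: gcgagcttGAAAGTTCCAGAAcgctgcg
HSPA8, chr11:123062172-123062199, 3 units: cgggccccTTCTGGAAGGTTCtaagata
HSP90AA1, chr14:102087113-102087140, 3 units: gagggttcTTCCGGAAGGTTCgggaggc
HSP90AB1, chr6:44247770-44247797, 3 units: ggagcaggTTCTGGAAGATTCatgggct
HSP90AB1, chr6:44247823-44247850, 3 units: tgagattgTTCTGGAAGCTTCtggattc
HSPB1, chr7:76302481-76302508, 2 units: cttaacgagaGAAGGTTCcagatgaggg
HSPA1A, chr6:31815427-31815454, 2 units: gaaaaccctgGAATATTCccgacctggc
HSPA1B, chr6:31827623-31827650, 2 units: gaaacccctgGAATATTCccgacctggc
DNAJB1, chr19:14518457-14518484, 2 units: gggcggggcgGAAGGTTCtggagggggc
DNAJB1, chr19:14518427-14518454, 2 units: gcgggctctgGAAGCTTCcgccggacgg
HSPA8 carries matches 230 to 218 and 55 to 43 bases before its start, with the units in opposite order. The HSP90AA1 match ends 76 bases before its start. A further 2-unit match of HSP90AA1, from 68 to 61 bases before the start, is not shown. The matches of HSP90AB1 belong to the last of its 3 start windows and the DNAJB1 matches printed to the second of its 3, of which 2 hold a match. The printed matches of HSPA8, HSP90AA1, HSP90AB1 and DNAJB1 lie inside the gene spans of GENCODE, and those of HSPB1, HSPA1A and HSPA1B before them. HSPA1A and HSPA1B carry the match at nearly the same place, 106 to 99 and 105 to 98 bases before the start. A match describes the letters only and says nothing of HSF1 binding in these cells.

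Sequence sharing matters for how the TPM of these genes can be read. In GENCODE release 29 (GRCh38), HSPA1A (chromosome 6, 31815464 to 31817946, plus strand) and HSPA1B (chromosome 6, 31827735 to 31830255, plus strand) are neighbours. Of the 50-base words of the HSPA1A transcript, 72.6% also occur in HSPA1B, and 71.4% of those of HSPA1B occur in HSPA1A. How the authors' counting split such reads is not given in the sources used here, so the separate values of these 2 genes are uncertain. HSP90AB1 (chromosome 6, 44246166 to 44253888, plus strand), HSP90AA1 (chromosome 14, 102080738 to 102139699, minus strand), HSPA8 (chromosome 11, 123057489 to 123063230, minus strand) and HSPB1 (chromosome 7, 76302544 to 76304295, plus strand) share 18.8%, 17.5%, 15.4% and 11.4% of their words with other genes, pseudogenes among them. DNAJB1 (chromosome 19, 14514770 to 14529770, minus strand) shares 2.57%. HSPH1 (chromosome 13, 31134974 to 31162388, minus strand), HSPA4 (chromosome 5, 133051962 to 133106449, plus strand) and HSF1 (chromosome 8, 144291591 to 144314722, plus strand) share none. Exons on the opposite strand cover 6.21% of the exonic bases of DNAJB1 (TECR and MIR639), 3.75% of HSP90AA1 (WDR20) and 2.62% of HSF1. Exons of other genes on the same strand cover 36.5% of the exonic bases of HSPA1B (AL671762.1) and 3.61% of HSPA8 (SNORD14C and SNORD14D), a further limit on the HSPA1B values. The libraries were stranded by kit, but whether strand was used in counting is not given.

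TPM add up to 1000000 in each column and keep no read totals, so the depth of each sample is unknown. The columns listed 14687 to 16935 genes above 0. MUC1, the check of the headings, had doxycycline columns wholly below the vehicle columns in each line: 0.105 to 0.204 against 1.03 to 15.2 TPM in RKO, 1.53 to 2.03 against 13.2 to 15 TPM in COLO 201, and 7.05 to 9.56 against 86.2 to 105 TPM in H1975. In RKO the 15.2 TPM was vehicle column 1 alone, and vehicle columns 2 and 3 had 1.24 and 1.03 TPM. Without column 1 the doxycycline mean of MUC1 was 12.2% of vehicle. The RKO fall of MUC1 passed in TPM (limma adjusted p = 0.0027) but not after the rescaling described next (adjusted p = 0.15). Small noncoding and ribosomal RNA genes took 67.8% to 72.0% of TPM in RKO vehicle columns and 71.1% to 78.7% in RKO doxycycline columns. This leaves less of that sum for every messenger RNA, so the members and list counts are also given after the columns were rescaled by their median ratio over the tested genes. In COLO 201 and H1975 the share that moved was that of the mitochondrially encoded genes, 18.4% to 21.1% against 15.2% to 16.8% and 16.1% to 21.1% against 14.7% to 16.04%. Small noncoding and ribosomal RNA genes took at most 0.00841% of TPM in COLO 201 and 0.000299% in H1975. Mitochondrially encoded genes took 0% in RKO. The RKO table thus differs from the others in make-up as well as in line. The median log2 change of all tested genes was -0.26 in RKO, 0.12 in COLO 201 and 0.06 in H1975, and -0.01, 0.00 and 0.00 after rescaling. RKO vehicle column 1 stood apart: the summed TPM of 8 fibroblast and endothelial markers were 182.8 there and at most 0.0199 in the other 5 columns. COL1A1, COL1A2 and COL3A1 made up nearly all of that sum. DCN and LUM were at 0.994 and 1.19 TPM there and at 0 in the other 5 columns. PDGFRB and PECAM1 were at 0.0157 and 0.0226 TPM in column 1, and VWF was at 0. Column 1 listed 16935 genes above 0, against 14935 to 15216 in the other RKO columns. The 15.2 TPM of MUC1 also belonged to that column. The members and the chaperone lists of RKO were therefore also fitted without that column. RKO was labelled colon cancer but had VIL1 and GPA33 at 0, CDH1 and KRT19 at most 0.0294 TPM and CLDN4 at most 0.183 TPM. The epithelial markers KRT18, KRT8 and EPCAM were at 21.5 to 48.4, 5.12 to 13.4 and 2.09 to 6.82 TPM there. Of the colon markers RKO had CDX2 at 1.18 to 2.96 TPM. COLO 201 had VIL1 at 90.7 to 119, LGALS4 at 20.3 to 59.7 and GPA33 at 4.52 to 13.8 TPM, but CDX1 at most 0.0259, CDX2 at most 1.02 and CDH17 at most 2.51 TPM. H1975 had NKX2-1 at 15.1 to 25.6 TPM and SFTPC and SCGB1A1 at 0.

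The order of the chaperones by level differed from line to line, with HSPA8 and the HSP90 pair on top in each. TPM is a value per transcript length, so genes can be set side by side within a table, but the 3 tables were normalized separately and levels between lines are not compared. In RKO vehicle columns the highest levels were 734 ± 85.5 TPM for HSP90AB1, 611 ± 65.1 for HSPA8 and 556 ± 202 for HSP90AA1 (mean ± SD, n = 3, as for all such values here). These 3 neighbours overlapped over the columns. HSPB1 followed at 258 ± 17.6, HSPA4 at 80.3 ± 7.52, DNAJB1 at 55.0 ± 4.75 and HSF1 at 40.6 ± 3.03. HSPH1, at 22.1 ± 19.97, overlapped HSF1 through vehicle column 1, and HSPA1B (7.48 ± 0.593) and HSPA1A (1.64 ± 2.52) were lowest. In COLO 201 the constitutive HSP70 came first and the inducible pair last. HSPA8 was at 1008 ± 25.03 TPM, then HSP90AA1 at 751 ± 17.9 and HSP90AB1 at 712 ± 14.97, which did not overlap. Below them were HSPB1 at 393 ± 19.0, HSPH1 at 246 ± 10.4, DNAJB1 at 215 ± 6.15, HSPA4 at 109 ± 3.33, HSF1 at 77.5 ± 1.36, HSPA1B at 56.2 ± 2.34 and HSPA1A at 0.981 ± 0.215. No neighbours in that order overlapped in vehicle columns. In the lung line the inducible HSP90 led, and the inducible HSP70 genes were not the lowest. H1975 had HSP90AA1 at 1527 ± 81.2 TPM, HSP90AB1 at 1336 ± 58.7 and HSPA8 at 1169.9 ± 70.6. HSPB1 stood at 596 ± 73.3, HSPA4 at 152 ± 10.5 and DNAJB1 at 99.5 ± 2.97. HSPA1A (79.7 ± 12.7) overlapped HSPA1B (77.7 ± 9.91), and HSF1 (56.1 ± 7.79) overlapped HSPH1 (49.95 ± 3.25). In vehicle columns HSPA1A was thus at most 1.14 TPM in both colon lines, apart from 4.55 TPM in RKO column 1, and level with HSPA1B in the lung line.

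**Figure D1:**
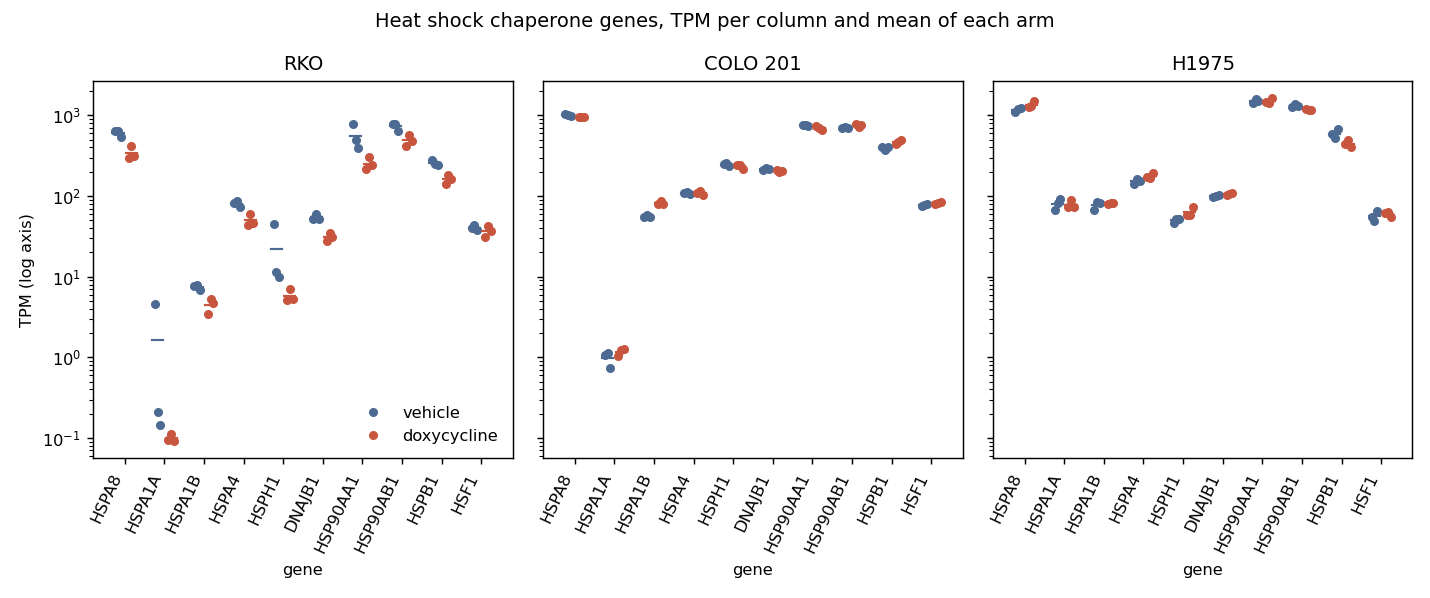
TPM of the 10 genes (log axis) in each vehicle and doxycycline column of the 3 lines; points are columns and short lines are arm means of 3 columns. In RKO the doxycycline points of every gene but HSF1 lie below the vehicle points, HSPA1A spans 0.0909 to 4.55 TPM there, and in COLO 201 HSPA1B is the gene whose doxycycline columns (78.6 to 86.5 TPM) stand farthest above vehicle (54.7 to 58.9 TPM).

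The first comparison asked which chaperone transcripts differed in RKO once the MUC1 hairpin was induced. Of the 9 members tested there, 8 fell (limma on log2(TPM + 1), adjusted p under 0.05; 16.1% of all tested genes fell and 2.09% rose) and HSF1 did not pass. After rescaling, 5 of the 9 fell, HSPA8, HSPA1B, HSPA4, DNAJB1 and HSPB1, where 14.2% of all genes fell and 13.6% rose. The other tested chaperones, HSPH1, HSP90AA1 and HSP90AB1, kept a negative change there without passing. HSPA1A was below the minimum mean of 1 TPM and was not tested. By the columns themselves, 8 of the 9 lay wholly below vehicle in TPM (32.4% of tested genes lay wholly below and 3.9% wholly above). After rescaling the same 8 genes lay below and HSF1 wholly above (26.5% and 26.6%). Without vehicle column 1 and with rescaling, 8 members fell and HSF1 rose. In that setting most genes were called: of 10296 tested, 3078 fell and 2975 rose.

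HSPA8, the constitutive HSP70, read 647, 649 and 535 TPM in vehicle columns 1 to 3 and 294, 413 and 313 TPM in doxycycline columns 1 to 3. The arms did not overlap, and the doxycycline mean was 55.7% of vehicle, or 67.7% after rescaling. The log2 change was -0.85 ± 0.22 (SE; limma adjusted p = 0.0063) and -0.56 ± 0.09 after rescaling (adjusted p = 0.0090). Without vehicle column 1 the rescaled change was -0.49 (adjusted p = 1.7e-04). DNAJB1, the J-domain partner that feeds clients to HSP70, had rescaled vehicle values of 49.3, 49.7 and 49.9 TPM and rescaled doxycycline values of 36.9, 32.5 and 34.3 TPM. Its rescaled vehicle columns were the tightest of all members, relative to their mean. In TPM it read 52.3, 60.5 and 52.2 against 28.1, 34.8 and 30.8. The log2 change was -0.80 ± 0.22 (limma adjusted p = 0.011) in TPM and -0.51 ± 0.07 (adjusted p = 0.0040) after rescaling, and -0.52 without vehicle column 1.

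The 2 HSP110 genes, whose proteins release ADP from HSP70, behaved differently over the RKO columns. HSPA4 read 81.6, 87.0 and 72.2 TPM with vehicle and 43.4, 60.1 and 45.9 TPM with doxycycline. It fell to 62.0% of vehicle, by 0.69 ± 0.23 on the log2 scale (limma adjusted p = 0.032; -0.40 after rescaling, adjusted p = 0.013), and the rescaled change without vehicle column 1 was -0.36. HSPH1 read 45.1 TPM in vehicle column 1 but 11.3 and 9.78 TPM in columns 2 and 3, against 5.12, 6.96 and 5.33 TPM with doxycycline. Every doxycycline column was below every vehicle column, yet the size of the change rested on the first: the doxycycline mean was 26.3% of vehicle with it and 55.0% without it. The HSPH1 change was -1.44 ± 0.31 (limma adjusted p = 0.0019) in TPM, -1.18 ± 0.56 after rescaling (adjusted p = 0.17), and -0.49 rescaled without vehicle column 1 (adjusted p = 3.4e-05).

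Both inducible HSP70 genes were low in RKO. HSPA1B read 7.71, 7.92 and 6.80 TPM with vehicle and 3.42, 5.31 and 4.70 TPM with doxycycline, a log2 change of -0.64 ± 0.18 (limma adjusted p = 0.015; -0.40 after rescaling, adjusted p = 0.012, and -0.36 when vehicle column 1 was also left out). HSPA1A read 4.55, 0.213 and 0.145 TPM against 0.0951, 0.113 and 0.0909 TPM. Vehicle column 1 thus stood far above the rest, and with it left out the doxycycline mean of HSPA1A was 55.7% of vehicle, or 70.5% after rescaling. HSPA1A, HSPH1 and HSP90AA1 were the 3 members high in that column, the one with the collagen transcripts. The part of whatever sets that column apart in these values was not tested beyond leaving it out. In RNA from a whole culture, fewer cells of a kind and less RNA per cell cannot be told apart.

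**Figure D2:**
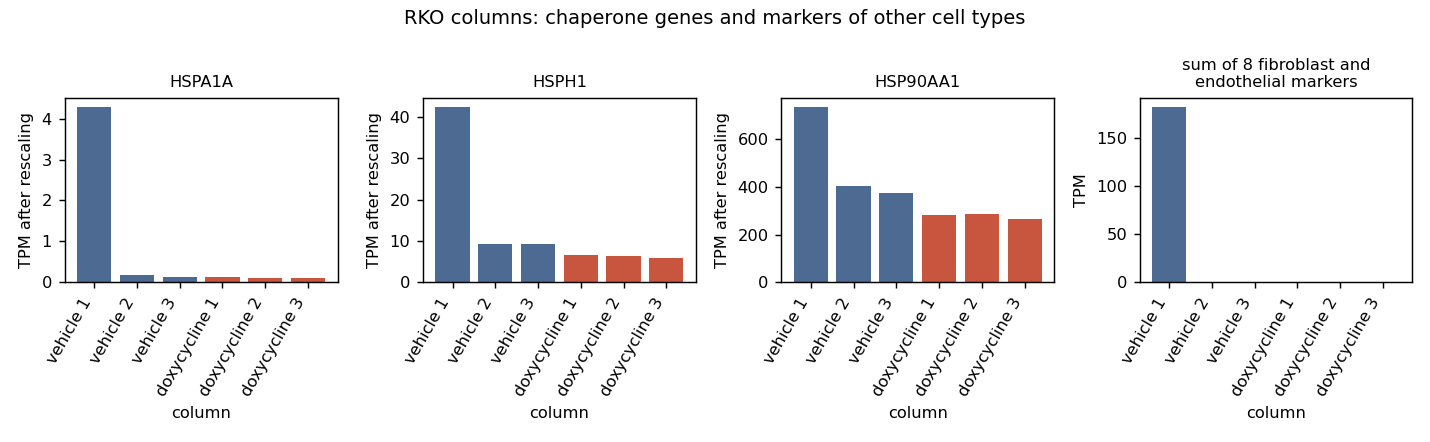
The 6 RKO columns: rescaled TPM of HSPA1A, HSPH1 and HSP90AA1, and the summed TPM of 8 fibroblast and endothelial markers, as bars from 0. Vehicle column 1 is the highest for all 4 quantities, with 42.5 rescaled TPM of HSPH1 against 9.31 and 9.34 in the other vehicle columns and 182.8 TPM of markers against almost none.

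Of the HSP90 pair, HSP90AA1, the inducible form, read 782, 492 and 393 TPM with vehicle and 214, 305 and 239 TPM with doxycycline. The arms did not overlap, and the change of -1.09 ± 0.24 (limma adjusted p = 0.0023) became -0.79 ± 0.26 after rescaling (adjusted p = 0.065). With vehicle column 1 out as well it was -0.50 (adjusted p = 8.3e-05). HSP90AB1, the constitutive form, read 783, 785 and 636 TPM against 423, 569.9 and 476 TPM, a smaller change of -0.59 ± 0.21 that barely passed (limma adjusted p = 0.049). After rescaling it was -0.29 (adjusted p = 0.060), and -0.22 without vehicle column 1 (adjusted p = 0.018). HSPB1 read 278, 251 and 244 TPM against 140.5, 182 and 161 TPM and fell by 0.68 ± 0.22 on the log2 scale (limma adjusted p = 0.031), or by 0.39 after rescaling (adjusted p = 0.036) and 0.31 with vehicle column 1 out as well. HSF1 did not pass. Its TPM of 39.7, 44.0 and 38.2 with vehicle and 31.3, 42.6 and 37.0 with doxycycline overlapped, with a log2 change of -0.14 (limma adjusted p = 0.67). After rescaling the sign turned: 37.4, 36.2 and 36.5 against 41.2, 39.8 and 41.1, a change of 0.15 (adjusted p = 0.095), and adjusted p = 0.018 without vehicle column 1. The RKO calls in TPM rested on single columns. Members that fell numbered 0 without doxycycline column 1, 2 without doxycycline column 3, 3 without vehicle column 2, 6 without vehicle column 3 and 0 with no minimum TPM.

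In COLO 201 the heat shock genes parted: HSPA1B and HSPB1 rose, HSP90AA1 fell, and 7 of the 10 members did not pass (45.9% of all tested genes rose and 15% fell). After rescaling HSPA1B alone rose (28.5% of all genes) and HSPA8, HSPH1, DNAJB1, HSPA4 and HSP90AA1 fell (28.7%). In TPM 2 members lay wholly above vehicle, HSPA1B and HSPB1, and 2 wholly below, HSPA8 and HSP90AA1 (48.5% and 16.6% of tested genes). HSPA1B, an inducible HSP70, read 55.0, 58.9 and 54.7 TPM with vehicle and 78.6, 86.5 and 79.8 TPM with doxycycline. The doxycycline mean was 145% of vehicle, or 133% after rescaling. Its log2 change was 0.53 ± 0.05 (limma adjusted p = 1.7e-06) and 0.41 ± 0.04 after rescaling (adjusted p = 2.2e-05), and it passed under all 14 alternatives run. Its neighbour HSPA1A read 1.07, 1.14 and 0.735 against 1.03, 1.22 and 1.27 TPM, overlapping arms with a change of 0.14 (adjusted p = 0.23).

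The constitutive HSP70 and its partners moved little. HSPA8 read 1028, 1016 and 980.0 TPM with vehicle and 969, 949 and 951 TPM with doxycycline, a change of -0.08 ± 0.04 (limma adjusted p = 0.12) that was -0.20 ± 0.04 after rescaling (adjusted p = 0.0030). DNAJB1 read 208, 220.4 and 216 against 209, 200.5 and 204 TPM (-0.07, adjusted p = 0.13; -0.20 after rescaling, adjusted p = 0.0013). HSPA8 and DNAJB1 thus passed after rescaling, relative to the median gene of this line, and not in TPM. HSPH1, at 215 to 243 TPM with doxycycline and 234 to 254 TPM with vehicle, had the same rescaled change of -0.20 (limma adjusted p = 0.0030). HSPA4 was at 104 to 115 against 105 to 112 TPM, with 0.01 (adjusted p = 0.89) in TPM and -0.12 (adjusted p = 0.018) after rescaling.

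Of the HSP90 pair 1 gene passed. HSP90AA1 read 759, 763 and 730.4 TPM with vehicle and 729.9, 689 and 655 TPM with doxycycline, so that the arms were separated by less than 1 TPM. It fell by 0.12 ± 0.05 on the log2 scale (limma adjusted p = 0.039), and by 0.25 ± 0.04 after rescaling (adjusted p = 9.5e-04). The call in TPM was lost without vehicle column 1 (adjusted p = 0.12), vehicle column 2 (0.11) or doxycycline column 3 (0.13), with no minimum TPM (0.076) and with no trend (0.073). HSP90AB1 read 708, 728 and 699 against 781, 715 and 756 TPM, overlapping arms with 0.08 (limma adjusted p = 0.15) in TPM and -0.05 (adjusted p = 0.39) after rescaling. HSPB1 read 403, 371 and 405 TPM with vehicle and 443, 462 and 496 TPM with doxycycline. It rose by 0.25 ± 0.05 (limma adjusted p = 0.0010), but with rescaled columns the arms overlapped and the change was 0.12 ± 0.07 (adjusted p = 0.14). HSF1, at 76.1 to 78.8 against 78.8 to 83.9 TPM, did not pass on either scale (0.08, adjusted p = 0.12; -0.05, adjusted p = 0.35). The colon epithelium markers moved in the same columns: 3 of the 4 tested fell and 1 rose, and their sum over 6 genes was 184 to 190.1 TPM with vehicle and 120.0 to 122 TPM with doxycycline. Their part in the chaperone values was not tested.

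In the lung line H1975 HSPA8, HSPH1 and HSPA4 rose and HSPB1 and HSP90AB1 fell, with 5 members not passing (23.9% of all tested genes rose and 14.6% fell). After rescaling HSPH1 rose (18.5% of all genes) and HSPB1 and HSP90AB1 fell (19.9%). By columns in TPM, HSPA8, HSPH1, HSPA4 and DNAJB1 lay wholly above vehicle and HSPB1 and HSP90AB1 wholly below (30.7% and 18.4% of tested genes). HSPB1 read 583, 531 and 675 TPM with vehicle and 437, 502 and 402 TPM with doxycycline, a mean of 75.0% of vehicle. Its log2 change of -0.41 ± 0.09 (limma adjusted p = 0.0035) was -0.47 ± 0.11 after rescaling (adjusted p = 0.0083), and it passed under all 14 alternatives run.

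HSPH1 read 46.2, 51.3 and 52.3 TPM with vehicle and 58.9, 58.0 and 72.5 TPM with doxycycline. The rise of 0.33 ± 0.09 on the log2 scale (limma adjusted p = 0.0098; 0.27 after rescaling, adjusted p = 0.019) had doxycycline column 3 highest. It did not pass without vehicle column 1 (adjusted p = 0.072). HSPA4, the other HSP110 gene, read 141, 162 and 152 against 172, 166 and 196 TPM, a rise of 0.22 ± 0.08 (limma adjusted p = 0.033; 0.17 after rescaling, adjusted p = 0.054). HSPA8 read 1092, 1188 and 1229.6 TPM against 1263, 1309 and 1489 TPM, a rise of 0.21 ± 0.07 (limma adjusted p = 0.038; 0.15 after rescaling, adjusted p = 0.092). All 3 of these genes were highest in doxycycline column 3. Without vehicle column 1 no member rose (HSPA8 adjusted p = 0.17, HSPA4 adjusted p = 0.15), and without doxycycline column 3 HSPH1 alone did. HSPA8 was also lost without vehicle column 2 (limma adjusted p = 0.055), and HSPA4 without vehicle column 3 (0.080) or doxycycline column 1 (0.060).

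Neither inducible HSP70 gene moved beyond its spread in H1975. HSPA1A read 66.2, 81.3 and 91.5 against 72.9, 88.4 and 73.6 TPM (-0.02, limma adjusted p = 0.91; -0.08 after rescaling), and HSPA1B 66.4, 84.5 and 82.3 against 79.5, 82.6 and 82.6 TPM (0.08, adjusted p = 0.50; 0.02 after rescaling). HSP90AA1 also had overlapping arms, 1445 to 1608 TPM with vehicle and 1427 to 1635 TPM with doxycycline (-0.01, adjusted p = 0.88; -0.07 after rescaling, adjusted p = 0.34). Its constitutive partner HSP90AB1 read 1282, 1398 and 1327 TPM with vehicle and 1189, 1170.1 and 1179 TPM with doxycycline. It fell by 0.18 ± 0.06 (limma adjusted p = 0.031), and by 0.24 ± 0.05 after rescaling (adjusted p = 0.0057). The TPM call was lost when any column but vehicle 1 was left out (adjusted p between 0.052 and 0.12). DNAJB1 read 96.6, 99.3 and 103 against 104, 105 and 108 TPM, arms that did not overlap, and yet did not pass (0.08, limma adjusted p = 0.30). After rescaling its arms overlapped (0.03, adjusted p = 0.67). HSF1 was at 48.9 to 64.4 TPM against 54.8 to 64.3 TPM (0.11, adjusted p = 0.38; 0.05 after rescaling). In the same columns 2 of the 2 tested fibroblast markers fell, COL1A1 and COL1A2, and the sum of that list went from 45.1 to 47.3 TPM with vehicle to 17.2 to 20.9 TPM with doxycycline, with DCN at 0. Its part in the chaperone values was not tested.

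**Figure D3:**
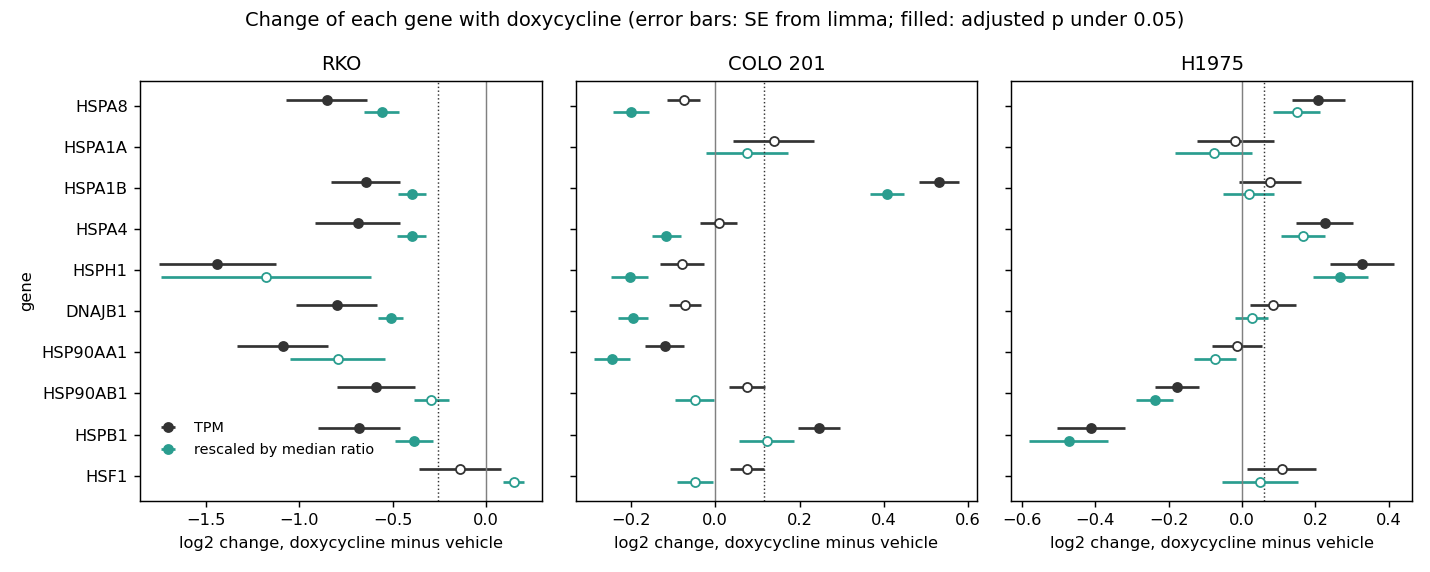
Log2 change of each gene (doxycycline minus vehicle) with the limma SE as bar, from TPM (dark) and from rescaled TPM (green); filled points have an adjusted p under 0.05, the dotted line is the median of all tested genes in TPM, and each panel has its own axis. In RKO every tested gene lies left of 0 in TPM, and HSF1 turns to 0.15 after rescaling. COLO 201 stands out for HSPA1B at 0.53, and H1975 for HSPB1 at -0.41 and HSPH1 at 0.33.

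Whether the lines differed was tested directly, in 1 fit over all 18 columns. It held 9402 genes listed and expressed in every line, 9 of them members. That fit takes 1 spread per gene over the lines, so the SE of a gene is the same for each pair. In TPM the spread was larger in RKO: HSPA1B had an SE of 0.18 there, 0.05 in COLO 201 and 0.09 in H1975. In the joint fit its SE was 0.17 for each pair. The p-values against RKO can thus be too small, and those between H1975 and COLO 201 too large. Because the RKO table differs from the others in make-up, a difference of line and a difference of table cannot be told apart against RKO. Against RKO, the change was higher in COLO 201 for 8 of 9 members (48.5% of all genes differed, 38.2% after rescaling) and in H1975 for 7 of 9 (41.4%, and 34.2% after rescaling). These shares count genes that differed in either direction, and the share that was higher alone was not counted. Rescaling kept 6 of each, and HSF1 was the member that differed in neither. The difference for HSPA8 was 0.78 ± 0.17 between COLO 201 and RKO (limma adjusted p = 9.7e-04) and 1.06 ± 0.17 between H1975 and RKO (adjusted p = 9.6e-05). Between H1975 and COLO 201, where 7.2% of all genes differed, HSPB1 was the 1 member called, at -0.66 ± 0.17 (limma adjusted p = 0.017; -0.60 after rescaling, adjusted p = 0.010). After rescaling, where 25.4% of genes differed, 5 members were called between these lines: HSPB1, HSPA1B at -0.39 (adjusted p = 0.0073), HSPA8 at 0.35 (0.017), DNAJB1 at 0.22 (0.019) and HSPA4 at 0.28 (0.022).

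Ratios between 2 genes of the same column do not depend on how that column was scaled. Of 15 ratios compared by an exact two-sided permutation test, none could go below the smallest p of 0.1 that 3 columns against 3 allow (0.167 adjusted over the 15). How often ratios of other gene pairs separate the arms was not counted. Among single genes in TPM separate arms were common: 32.4% lay wholly below vehicle and 3.9% wholly above in RKO. The shares were 16.6% and 48.5% in COLO 201, and 18.4% and 30.7% in H1975. The ratio of inducible to constitutive HSP90, HSP90AA1 to HSP90AB1, did not overlap between arms in any line. It was 0.999, 0.626 and 0.618 against 0.506, 0.535 and 0.502 in RKO. The difference of the mean log2 ratios, given for each ratio here, was -0.50 (exact permutation p = 0.1), and -0.27 without vehicle column 1. In COLO 201 the ratio went from 1.05 ± 0.0154 to 0.922 ± 0.0510 (-0.20). In H1975 it went the other way, from 1.14 ± 0.0138 to 1.28 ± 0.0902 (0.16). Inducible to constitutive HSP70, HSPA1A plus HSPA1B over HSPA8, had separate arms in COLO 201, where it went from 0.0567 ± 0.00228 to 0.0866 ± 0.00525 (0.61); taking the sum avoids the split of shared reads between the 2 genes. In RKO that ratio was 0.0148 and 0.0135 and in H1975 0.134 and 0.119, with overlapping arms. HSPB1 to HSPA8 went from 0.390 ± 0.0241 to 0.489 ± 0.0320 in COLO 201 (0.32) and from 0.510 ± 0.0554 to 0.333 ± 0.0579 in H1975 (-0.62), both without overlap. In RKO it overlapped (0.17, exact permutation p = 0.2). HSPH1 to HSPA4 was 0.552 in RKO vehicle column 1 and 0.130 and 0.135 in columns 2 and 3, against 0.116 to 0.118 with doxycycline. In H1975 it was 0.329 and 0.354, just separate. DNAJB1 to HSPA8 overlapped in RKO and COLO 201 and was lower with doxycycline in H1975, 0.0852 against 0.0783 (-0.12).

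**Figure D4:**
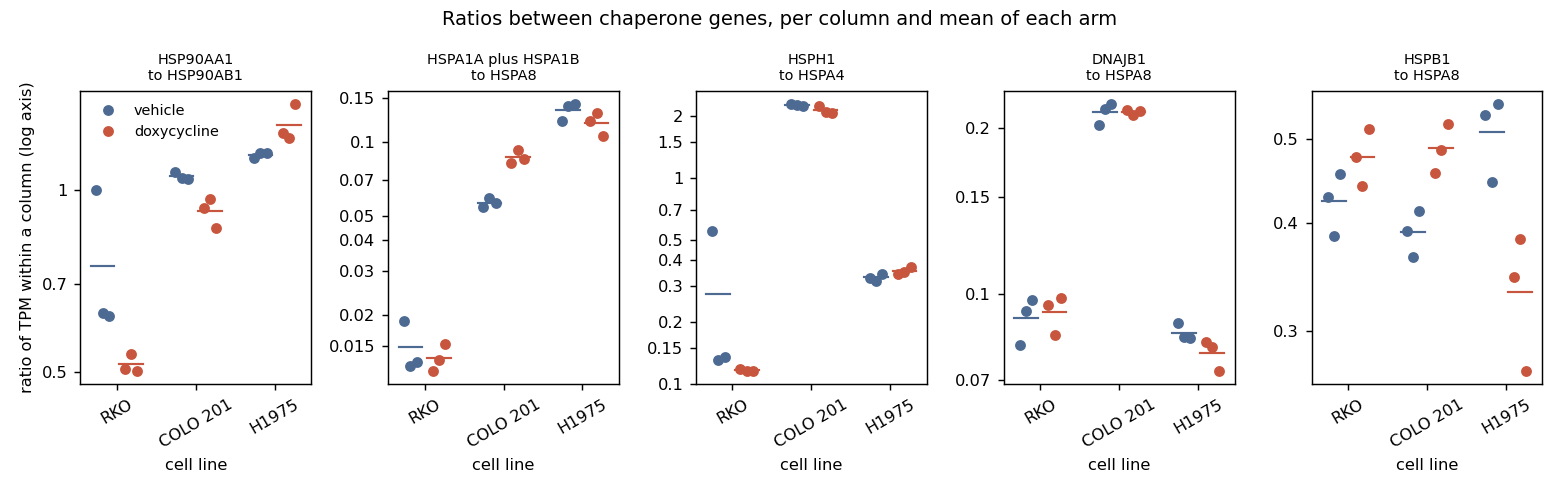
The 5 ratios of TPM in each column (points, log axis) and the mean of each arm (lines), by cell line. HSP90AA1 to HSP90AB1 separates the arms in all 3 lines, higher with doxycycline in H1975 and lower in the other lines, and HSPB1 to HSPA8 goes up in COLO 201 and down in H1975.

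The genes most like HSPA8 over the 18 columns, each value taken as log2(TPM + 1) minus its line mean, were FIRRM (Pearson r 0.981), TCP1 (0.981), HSPA4 (0.979), MACROH2A1 (0.977) and VMA21 (0.976), of 9401 genes. TCP1 encodes a subunit of the TRiC chaperonin. With rescaled columns HSPA4 ranked 2 (0.958), TCP1 ranked 3 (0.954) and MACROH2A1 ranked 4 (0.953). Genes outside the chaperone lists ranked 1 and 5 there. Those most like DNAJB1 were MCM4 (0.990), UNG (0.985), POLA2 (0.984), MCM5 (0.983) and CHAF1B (0.982). After rescaling the first 5 were ACLY (0.953), ACOT7 (0.947), POLA2 (0.944), MCM4 (0.943) and SRSF3 (0.941). Among the other members in TPM, DNAJB1 ranked 58 and HSP90AA1 539 by likeness to HSPA8. HSP90AB1 ranked 1392, HSPH1 2093, HSPA1B 3042, HSPB1 4347 and HSF1 5309. HSF1 had r = 0.50, or -0.32 after rescaling. The columns share the scaling and the common fall of RKO, and these values are descriptions.

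Genes that work with the members were read as lists, by counts of genes that rose or fell and by the median log2 change. The counts are to be read against the shares of all tested genes. Of these, 2.09% rose and 16.1% fell in RKO, 45.9% and 15% in COLO 201, and 23.9% and 14.6% in H1975. After rescaling the shares were 13.6% and 14.2% in RKO, 28.5% and 28.7% in COLO 201, and 18.5% and 19.9% in H1975. HSP90 co-chaperones fell in RKO for 6 of 12 genes and rose for 0 (median -0.59; -0.31 and again 6 after rescaling). PTGES3, the p23 co-chaperone that locks HSP90 on its client, went from 97.1 ± 9.60 to 50.4 ± 11.04 TPM (-0.95, limma adjusted p = 0.0045), and SUGT1, an HSP90 adaptor, from 17.4 ± 1.71 to 9.06 ± 1.53 TPM (-0.88). In H1975 5 of 12 rose and 0 fell (3 and 0 after rescaling), PTGES3 among them (0.31, adjusted p = 0.0070) with the immunophilin FKBP4 (0.26, adjusted p = 0.0047) and the ATPase activator AHSA1 (0.21, adjusted p = 0.018). In COLO 201 6 rose and 2 fell (4 and 5 after rescaling), in TPM near the shares of all tested genes. The phosphatase PPP5C was at 0.37 (limma adjusted p = 1.6e-05) and SUGT1 at -0.40 (adjusted p = 3.8e-04). PTGES3 itself was at -0.19 there (adjusted p = 0.062; -0.31 after rescaling, adjusted p = 0.0069).

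Among nucleotide exchange factors and HSP70 partners, RKO had 4 of 8 lower and 0 higher (2 lower after rescaling), COLO 201 had 3 higher and 2 lower (3 and 3), and H1975 had 0 higher and 2 lower on both scales. ST13, the Hip protein that steadies HSP70 bound to ADP, fell in every line: from 84.3 ± 12.4 to 44.9 ± 8.63 TPM in RKO (-0.90, limma adjusted p = 0.0064), from 175 ± 3.51 to 147 ± 1.83 TPM in COLO 201 (-0.25, adjusted p = 8.5e-05) and from 187 ± 10.9 to 162 ± 5.53 TPM in H1975 (-0.20, adjusted p = 0.027). Rescaling kept all 3 calls (-0.61, -0.37 and -0.26). BAG1, an exchange factor, rose in COLO 201 (0.36, adjusted p = 3.7e-05) and fell in H1975 (-0.25, adjusted p = 0.019). Of 12 J-domain genes beside DNAJB1, 1 rose and 3 fell in RKO (1 and 1 after rescaling), 2 and 5 in COLO 201 (2 and 8) and 0 and 1 in H1975 (0 and 3). DNAJB2, a ubiquitin-binding J-domain protein, rose in COLO 201 (0.35, adjusted p = 5.3e-05) and fell in H1975 (-0.24, adjusted p = 0.023). DNAJA1 went from 143 ± 40.7 to 76.0 ± 11.8 TPM in RKO (-0.88, adjusted p = 0.011; -0.59 after rescaling, adjusted p = 0.081). Of the other cytosolic HSP70 genes tested, 0 of 3 rose and 1 fell in RKO, 0 of 4 and 2 in COLO 201 (0 and 3 after rescaling), and 1 of 6 and 2 in H1975. HSPA4L, which also encodes an HSP110 protein, rose in H1975 (0.44, adjusted p = 0.0023) as HSPH1 and HSPA4 did.

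The TRiC chaperonin, which folds actin and tubulin, and prefoldin, which delivers them, were higher in H1975 for 9 of 14 genes and lower for 0 (median 0.21; 6 and 0 after rescaling). VBP1 (0.37, limma adjusted p = 0.0041) and PFDN6 (0.33, adjusted p = 0.0015) led them. In RKO 1 of 14 rose and 3 fell (1 and 5 after rescaling), with TCP1 at -0.86 (adjusted p = 0.0088) and CCT5 at -0.85 (adjusted p = 0.0092), and in COLO 201 3 rose and 1 fell (1 and 8). PFDN2 rose in every line, from 117 ± 16.3 to 197 ± 34.4 TPM in RKO (0.75, adjusted p = 0.022), from 208 ± 7.71 to 283 ± 20.9 in COLO 201 (0.44, adjusted p = 1.5e-05) and from 590.2 ± 17.6 to 719 ± 27.5 in H1975 (0.29, adjusted p = 0.0025), with 1.04, 0.32 and 0.23 after rescaling, all called.

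Other heat-inducible genes rose in COLO 201 for 6 of 8 and fell for 1 (4 and 1 after rescaling). SQSTM1, an autophagy receptor, went from 101 ± 4.67 to 199 ± 5.39 TPM (0.98, limma adjusted p = 4.7e-09; 0.85 after rescaling), and the haem oxygenase HMOX1 from 9.54 ± 0.666 to 13.5 ± 0.661 TPM (0.46). In RKO 0 rose and 3 fell (1 and 2 after rescaling), among them SERPINH1, the collagen chaperone, from 70.9 ± 42.9 to 27.0 ± 4.08 TPM (-1.21; -0.93 after rescaling, adjusted p = 0.13). SERPINH1 was at 120.3 TPM in vehicle column 1, the one with the collagen transcripts, and at most 47.8 TPM in the others: its doxycycline mean was 38.1% of vehicle with that column and 58.6% without it (-0.76, adjusted p = 0.012). In H1975 1 rose and 2 fell (1 and 3), with ATF3 at 0.38 and SERPINH1 at -0.45 (adjusted p = 1.5e-04). The other heat shock factors HSF2 and HSF4 and the HSF1 inhibitor HSBP1 all rose in COLO 201 (0.32, 0.33 and 0.13; HSF2 and HSF4 also after rescaling), and 0 of 3 were called in RKO or H1975. The other small heat shock proteins passed the minimum level only in H1975, where HSPB8 went from 18.8 ± 0.890 to 30.2 ± 1.70 TPM (0.65, adjusted p = 1.5e-05) and HSPB6 from 106 ± 0.869 to 85.8 ± 9.70 TPM (-0.31, adjusted p = 0.0077).

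Chaperones of other compartments were counted in the same way, to be read against the same shares of all tested genes. ER chaperones, such as the HSP90 of that compartment, HSP90B1, fell in COLO 201 for 11 of 15 genes and rose for 0 (median -0.23; 13 and -0.35 after rescaling), with HSP90B1 at -0.49 (limma adjusted p = 1.1e-06), PDIA4 at -0.48 and HERPUD1 at -0.42. In RKO 4 of 15 fell and 0 rose (2 and 1 after rescaling), and in H1975 3 rose and 1 fell (3 and 2). Mitochondrial chaperones and proteases rose in COLO 201 and in H1975 for 5 of 11 each, with 0 lower (4 and 3 after rescaling in COLO 201, 4 and 0 in H1975). In COLO 201 that share is near the 45.9% of all tested genes that rose. TRAP1, the mitochondrial HSP90, was among them in both (0.33 and 0.29). In RKO 1 fell, HSPE1 (-0.97, adjusted p = 0.0048), and after rescaling 3 rose. With RKO vehicle column 1 left out, the counts of higher and lower genes in TPM moved by over 1.5 times for 4 lists. Exchange factors and HSP70 partners went to 0 and 2, TRiC and prefoldin to 1 and 5, other cytosolic HSP70 genes to 0 and 2, and heat-inducible genes to 2 and 3. Mitochondrial and ER chaperones had 0 and 1 and 0 and 3, J-domain genes 1 and 3 and HSP90 co-chaperones 0 and 6. With rescaling as well the calls of all genes went up to 2975 higher and 3078 lower of 10296 tested, and HSP90 co-chaperones had 0 and 9. The median change over all tested genes to read these against was -0.26, 0.12 and 0.06 for RKO, COLO 201 and H1975.

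**Figure D5:**
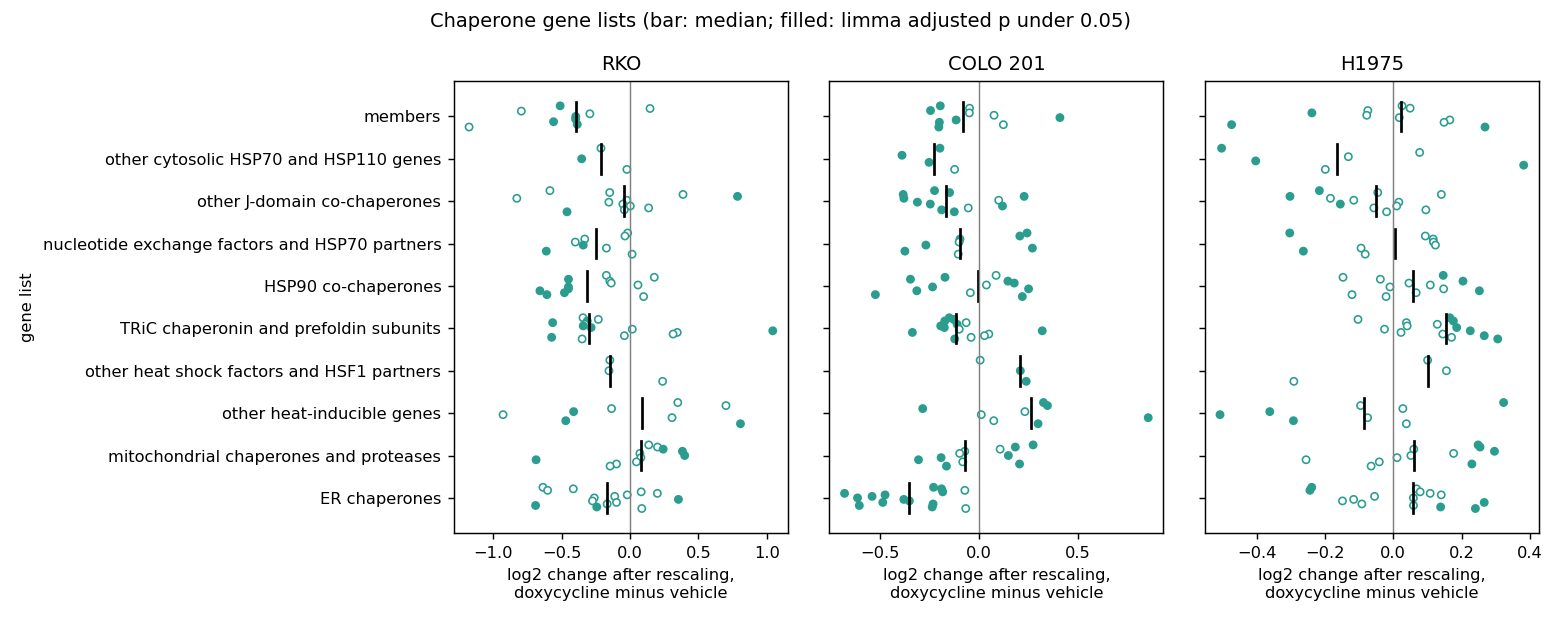
Log2 change after rescaling of each tested gene of the 10 lists (points, filled where the limma adjusted p is under 0.05) with the median of the list (bar), by line; each panel has its own axis. In RKO the members' median is -0.40, in COLO 201 the ER chaperones stand lowest with a median of -0.35, and in H1975 the TRiC and prefoldin genes lie mostly above 0.

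The genes with an exact 3-unit match in a start window, the members HSPA8, HSP90AA1 and HSP90AB1 among them, were also counted. In RKO 10 of the 39 tested fell and 0 rose, 25.64% against 16.49% of all genes with a window, and after rescaling 6 fell and 2 rose (15.38% and 5.13%, against 14.63% and 13.48%). In COLO 201 15 of 36 rose and 6 fell, 41.67% and 16.67% against 46.4% and 14.79% of all genes with a window. In H1975 10 of 48 rose and 9 fell, 20.83% and 18.75% against 23.86% and 13.88%. After rescaling H1975 had 5 higher and 12 lower, 10.42% and 25% against 18.44% and 19.36% of all genes with a window. In COLO 201 the rescaled counts were 10 and 12, 27.78% and 33.33% against 28.73% and 28.7%.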

How the data were processed

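Per the labels' protocols, RNA was taken with an RNeasy Plus Mini kit from triplicate cultures and made into TruSeq Stranded mRNA libraries. STAR, DESeq2 and GRCh38 are named in the submitters' processing notes without versions; how the TPM were computed and the annotation are not given in the sources used here. The authors deposited 1 table of TPM per line, with 25673, 19909 and 19977 entries for RKO, COLO 201 and H1975, each column summing to 1000000. TPM keep no read totals, so depth is unknown and no counting interval can be given. Entries whose names had turned into dates (28, all of them in the COLO 201 table, holding no more than 0.0684% of a column) were dropped. Older symbols were matched to current ones (1103, 1332 and 1357 entries).

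The main test was limma (version 3.58.1, R 4.3.3), two-sided and with its trend option, applied to log2(TPM + 1) of the 10551, 11566 and 12359 genes that averaged 1 TPM or more, with Benjamini-Hochberg adjustment over all tested genes of a line. Fold changes on this scale understate those of low genes. Calls are adjusted p under 0.05. Rescaled values are TPM divided by the median ratio of a column to the geometric mean of the line over the tested genes above 0 in every column. Whether the columns of an arm came from separate cultures on separate days is not stated, so p-values measure the spread between these columns. The column numbers were not treated as pairing the arms, a question that 3 columns per arm cannot settle. Lines were compared in 1 model of all 18 columns with 1 variance per gene, and ratios by exact permutation. Sequences came from RefSeq (GRCh38.p14) and GENCODE 29, read in Python 3.11.15. Scripts were tested on simulated data. The members and lists were chosen with earlier results of these data known. Named genes are the 10 members, MUC1, up to 3 genes per list and line with the smallest adjusted p, and the 5 genes most like HSPA8 and DNAJB1. 1 gene that the rule names is not reported here. Beside 10 chaperone lists, 5 marker lists (epithelial, colon, lung, fibroblast and endothelial, leukocyte and erythroid) were read. Of the leukocyte and erythroid markers 0 averaged 1 TPM in RKO, 1 of 1 tested rose in COLO 201 and 1 of 2 fell in H1975. Of the epithelial markers, 1 of 3 rose in RKO, 1 of 6 fell in COLO 201 and 1 of 6 rose in H1975. Of the lung markers, 2 of 2 tested fell in H1975. Other settings tried were a pseudocount of 0.1 or 5, a minimum mean of 5 TPM or none, rescaling, removal of small noncoding, ribosomal and mitochondrial RNA genes, no trend, the column number as block, and each column left out. The fit of the RKO lists without vehicle column 1 was chosen after seeing the data.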

Additional observations from a re-analysis of the deposited data

Results flagged for a closer look

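The doxycycline effect differed between lines in the joint limma fit for 8 members (differences of log2 changes, with the value after rescaling in parentheses and adjusted p over 9402 genes). Line and table cannot be told apart in the differences against RKO. Of all genes, 48.5% passed in either direction between COLO 201 and RKO, 41.4% between H1975 and RKO and 7.2% between H1975 and COLO 201.

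Between COLO 201 and RKO the effect was higher in COLO 201. HSPA1B differed by 1.17 (0.80, adjusted p 2.4e-05 and 9.7e-06), HSPB1 by 0.93 (0.51, adjusted p 2.0e-04 and 0.016) and DNAJB1 by 0.73 (0.32, adjusted p 3.0e-04 and 0.0012). HSPA8 differed by 0.78 (0.36, adjusted p 9.7e-04 and 0.0092), HSPA4 by 0.70 (0.28, adjusted p 0.0020 and 0.014) and HSP90AB1 by 0.66 (0.24, adjusted p 0.0019 and 0.042). HSP90AA1 differed by 0.97 (0.55, adjusted p 0.0028 and 0.074) and HSPH1 by 1.36 (0.97, adjusted p 0.016 and 0.14), so both lost the call after rescaling. Both were high in RKO vehicle column 1, and without that column their differences in TPM were 0.69 and 0.69.

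Between H1975 and RKO the effect was higher in H1975. DNAJB1 differed by 0.88 (0.54, adjusted p 7.7e-05 and 1.6e-05), HSPA8 by 1.06 (0.71, adjusted p 9.6e-05 and 6.0e-05) and HSPA4 by 0.91 (0.56, adjusted p 3.3e-04 and 1.1e-04). HSP90AA1 differed by 1.07 (0.72, adjusted p 0.0018 and 0.026), HSPA1B by 0.72 (0.41, adjusted p 0.0027 and 0.0034) and HSPH1 by 1.76 (1.44, adjusted p 0.0041 and 0.038). Without RKO vehicle column 1 the difference of HSPH1 was 1.10. HSP90AB1 differed by 0.41 (0.06, adjusted p 0.039 and 0.67), which did not pass after rescaling and had an adjusted p of 0.053 without RKO vehicle column 1.

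Between H1975 and COLO 201 HSPB1 differed by -0.66 (-0.60, adjusted p 0.017 and 0.010): in TPM it rose in COLO 201 and fell in H1975, and the rise in COLO 201 did not pass after rescaling (0.12, adjusted p 0.14).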

How the results depend on the processing

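Over 29 member results and 423 alternatives, direction and side of the threshold held in 323, the call was lost in 75, gained in 7 and the direction turned in 18. Called members with no change in any alternative were 2, HSPB1 in H1975 and HSPA1B in COLO 201. Causes were not tested unless the setting itself shows one.

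Members that fell in RKO (8) numbered 0 with no minimum TPM, 5 after rescaling, 3 with the replicate block and rescaling, and 0 to 8 with 1 column left out; members that rose (0) numbered 1 with vehicle column 1 out and rescaling. All genes called in RKO (1915) were 28 with no minimum TPM, 2930 after rescaling, 6053 with vehicle column 1 out and rescaling, and 595 to 2410 with 1 column out. In COLO 201 members that rose (2) were 1 after rescaling and 2 to 3 with 1 column out (HSP90AB1 without doxycycline column 2, 0.11, adjusted p 0.033), and those that fell (1) were 0 with no minimum TPM or no trend, 5 after rescaling, 4 with small noncoding, ribosomal and mitochondrial RNA genes removed, and 0 to 1 with 1 column out. In H1975 members that rose (3) were 1 with no minimum TPM, rescaling, that removal or no trend, and 0 to 3 with 1 column out. Those that fell (2) were 1 with no minimum TPM, no trend or the replicate block, and 1 to 2 with 1 column out; all genes called (4759) were 3075 to 5206 with 1 column out. Members called between H1975 and COLO 201 (1) were 5 after rescaling and 2 without RKO vehicle column 1.

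The direction turned for HSF1 in RKO (0.15 after rescaling, alone, with the block and with vehicle column 1 out, and 0.12 with those RNA genes removed), and in COLO 201 after rescaling for HSF1 (-0.048), HSP90AB1 (-0.049) and HSPA4 (-0.12, and -0.058 with those genes removed). With 1 column out, HSPA4 in COLO 201 ran from -0.026 to 0.042, and in H1975 HSP90AA1 from -0.072 to 0.027, HSPA1A from -0.14 to 0.086 and HSPA1B from -0.032 to 0.14. After rescaling the line differences of HSF1 were -0.19 (COLO 201 minus RKO) and -0.10 (H1975 minus RKO), and that of HSPB1 was -0.087 (H1975 minus RKO). With 1 column out the log2 ratio of DNAJB1 to HSPA8 ran from -0.033 to 0.029 in COLO 201 and from -0.042 to 0.10 in RKO, and that of HSPA1A plus HSPA1B to HSPA8 in RKO from -0.23 to 0.071.

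Same-numbered columns deviated from their arm means with correlations of 0.29, 0.27 and -0.01 in RKO, -0.05, 0.15 and 0.28 in COLO 201 and 0.16, -0.42 and -0.35 in H1975, so the number was not treated as a pairing. With the number as a replicate block 6 members fell in RKO, 2 rose and 1 fell in COLO 201, and 2 rose and 1 fell in H1975. With the block, all genes called were 2415, 7759 and 3738. TPM without read totals leave the precision of low genes such as HSPA1A unknown.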
